A study of Mus musculus with 20 samples.

Results

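Mouse embryonic stem (ES) cells that lack both de novo DNA methyltransferases were compared before and after their differentiation into Flk1(+) mesoderm. The Flk1(+) cells of the Dnmt3a-/-Dnmt3b-/- double-knockout (DKO) lines were set against the undifferentiated DKO ES cells, each group with 2 arrays labelled as biological replicates. These are 4 of the 20 arrays of the series, and the same comparison in wild-type (WT) cells takes another 4. The members were all 18194 genes with a probe set of a single symbol, each read from the brightest of its probe sets on average over the 20 arrays. Of these genes, 830 rose and 1023 fell at least 2-fold in DKO Flk1(+) cells.

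DKO Flk1(+) cells were made from DKO ES cells of the J1 line, of the 129sv/Jae strain, by 4 days on type IV collagen without leukemia inhibitory factor (LIF), and were sorted for Flk1 and the PDGF receptor alpha. Replicate 1 came from the parental DKO line 16aabb, which carries no transgene, and replicate 2 from 16G4.3, a single clone of it that carries Gata4GR. Gata4GR joins Gata4 to the hormone-binding part of the human glucocorticoid receptor and is driven by the ubiquitous CAG promoter. It is inactive without dexamethasone, which none of the ES and Flk1(+) arrays received. Both DKO ES arrays came from clone 16G4.3, kept undifferentiated with 2000 U/ml LIF. WT Flk1(+) cells came likewise from the J1 line (replicate 1) and the Gata4GR clone J1G4.2 (replicate 2), and both WT ES arrays from J1G4.2. The DKO primitive endoderm set beside these cells below was made from clone 16G4.3 in LIF with dexamethasone, which activates Gata4GR. The recovery of DKO Flk1(+) cells on collagen was described as low, and more DKO than WT cells were plated.

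Flk1, the product of Kdr, is the receptor for vascular endothelial growth factor that marks the mesoderm able to give rise to blood, endothelium, mural cells and heart. In the embryo, epiblast cells leave the pluripotent state under Nodal, BMP, Wnt and FGF signals, pass through the primitive streak, lose E-cadherin and migrate out as mesoderm. DNMT3A and DNMT3B place the new methylation that covers many promoters at this time, those of germline genes among them, while DNMT1 copies existing methylation at replication.

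All values below are log2 intensities, so that a difference of 1 is a 2-fold change. A gene passed when its p-value from limma, adjusted by the Benjamini-Hochberg method over the 18194 genes, was under 0.05 and its change at least 2-fold, and only such genes are said to have risen or fallen. The error after ± is the standard error of the fit, which takes 1 estimate of spread from all 10 groups of 2 arrays. A change is always DKO Flk1(+) minus DKO ES unless said otherwise. The values hold no detection calls, so that a low level is not proof of absence, and 40% of genes had a mean under 6.19. RNA came from whole cell populations, in which fewer cells of a type and less RNA per cell cannot be told apart.

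The pair of DKO Flk1(+) arrays correlated at r = 0.985 over genes and the pair of DKO ES arrays at r = 0.994. In DKO Flk1(+) cells 698 genes lay at least 2-fold apart between the replicates, 340 of them higher in the Gata4GR clone and 358 higher in the parental line, against 83 genes in DKO ES cells. The ES arrays were all scanned on a single day and the Flk1(+) arrays on other days, 1 for each replicate, so that scan day and cell state cannot be told apart, and within the Flk1(+) cells replicate, line and scan day cannot be told apart either. One DKO Flk1(+) and one DKO ES array, replicate 1 of each, shared a chip lot. Between those alone 721 of the 830 risen and 889 of the 1023 fallen genes lay at least 2-fold apart, which only describes the arrays, since the same arrays took part in the calls. Taken singly against the ES mean, the parental line was at least 2-fold away for 732 of the risen and 921 of the fallen genes, and the Gata4GR clone for 698 and 903. The 2 Flk1(+) arrays themselves were at least 2-fold apart for 96 of the risen and 82 of the fallen genes.

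The targeted genes were read first. Dnmt3a measured 6.49 and 6.79 in the DKO Flk1(+) arrays and 6.22 and 6.33 in the DKO ES arrays, against 8.81 and 8.43 in WT Flk1(+) and 9.44 and 9.34 in WT ES arrays. Dnmt3b measured 8.11 and 7.47 in DKO Flk1(+) and 8.97 and 8.88 in DKO ES arrays, against 12.03 and 11.47 in WT Flk1(+) and 13.06 and 12.63 in WT ES arrays. Every DKO array lay below every WT array for both genes, as the labels have it, and whether the probes lie inside the deleted parts was not examined. Dnmt3b fell in DKO Flk1(+) cells (change -1.14 ± 0.22, adjusted p = 0.00152) and Dnmt3a did not pass (0.37 ± 0.19). The other probe set of Dnmt3b changed by -0.54. The sorted receptors followed the sort. Kdr measured 12.30 and 12.23 in DKO Flk1(+) arrays, against 6.48 and 6.52 in DKO ES arrays, and Pdgfra 12.26 and 11.87, against 6.56 and 6.18. Both genes were used to choose the cells, so their differences of 5.77 and 5.69 are given as a description only.

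Over all genes 830 rose, 4.56% of those tested, and 1023 fell, 5.62%, with 211 risen and 294 fallen genes past 4-fold. Each list count below is to be read beside these shares of all genes, and no list was tested as a set. The median change over all 18194 genes was -0.001. Without the 2-fold limit 1751 genes were higher and 2079 lower at the same adjusted p. The largest rise was that of Aplnr, the receptor for the peptides apelin and Elabela, which measured 13.05 and 12.93 in DKO Flk1(+) arrays, against 3.95 and 3.84 in DKO ES arrays, a level not shown to be above background (change 9.09 ± 0.23, adjusted p = 6.86e-12). Asb4, a ubiquitin ligase subunit found in the embryonic vasculature, followed with 13.01 and 13.10, against 4.82 and 4.75 (8.27 ± 0.39, adjusted p = 2.03e-09). The deepest fall was that of Morc1, a germline gene that silences transposons, at 4.69 and 5.64 in DKO Flk1(+) arrays, against 11.18 and 11.31 in DKO ES arrays (-6.08 ± 0.45, adjusted p = 1.61e-07). The 12 largest rises otherwise took in Nrp1, Cdh11, Fosb, Mixl1, Lhx1, Eomes, Rspo3 and Bmper beside the sorted receptors, and the 12 largest falls Fgf4, Fbxo15, Nr0b1, Zfp42, Eras, Dppa2 and Gdf3 of the pluripotent state together with Trim2, Mcf2, Slc27a2 and Enox1. None of the 1853 genes had overlapping values between the DKO Flk1(+) and the DKO ES arrays. This follows largely from the calls, which were made on the same arrays, and the share of all genes without overlap is not given.

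**Figure D1:**
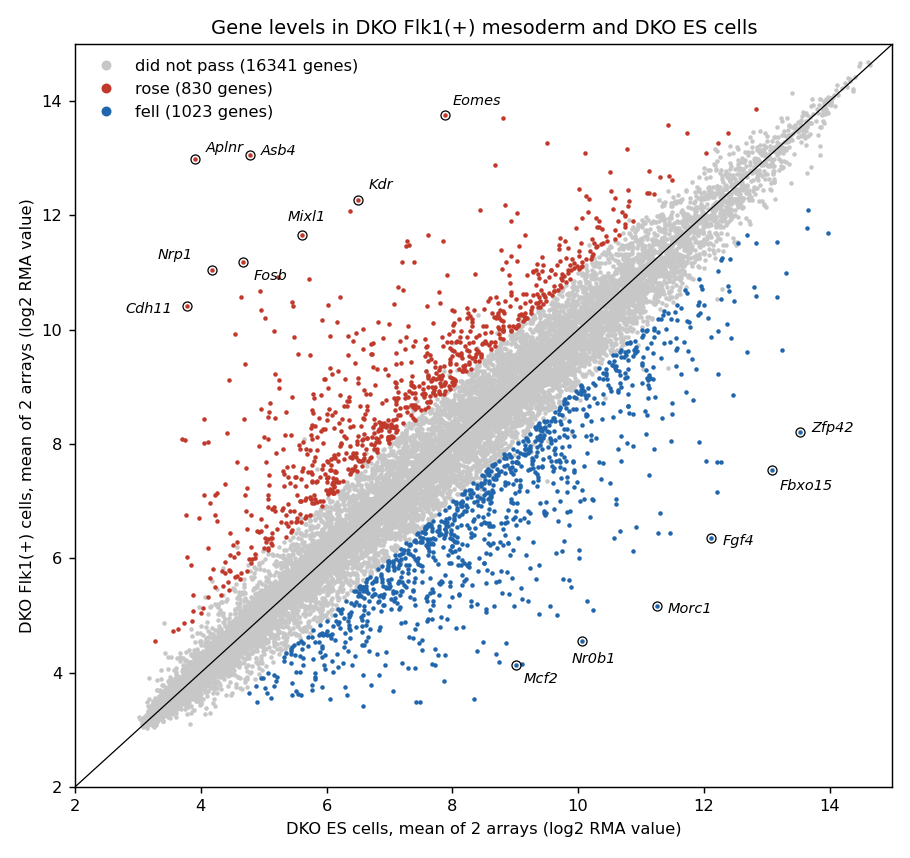
Mean log2 level of each of 18194 genes in DKO Flk1(+) cells (vertical axis) against that in DKO ES cells (horizontal axis), 2 arrays each. Red points are the 830 genes that rose, blue points the 1023 that fell and grey points those that did not pass. Aplnr and Asb4 sit at the upper left, and Fgf4, Morc1 and Nr0b1 at the lower right, far from the line of equal levels.

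Many genes of the primitive streak rose. Of 19 measured genes 10 rose and 1 fell, with a median change of 1.08, whereas T (brachyury) had no probe set of its own in the annotation used. Eomes, the T-box factor that starts mesoderm and endoderm formation in the streak, measured 13.49 and 14 in DKO Flk1(+) arrays, against 7.79 and 8.0 in DKO ES arrays. Mixl1, a homeobox factor of the streak, measured 11.13 and 12.18, against 5.49 and 5.74. Lhx1, a LIM homeobox factor of the streak and the node, measured 10.07 and 11.09, against 4.51 and 4.76. All 3 stood far apart between the states, with changes of 5.86 ± 0.33, 6.04 ± 0.30 and 5.94 ± 0.31 and the adjusted p = 1.2e-08, 3.42e-09 and 6.21e-09 in that order, and in each of them the Gata4GR clone was the higher of the 2 Flk1(+) arrays. Cyp26a1, which breaks down retinoic acid, rose by 4.27, Sp5, a Wnt target, by 2.72, Fgf3 by 2.32, Wnt3, the ligand that opens the streak, by 2.24, and Evx1 by 1.51. Smaller rises were those of Gsc (5.42 and 4.84, against 4.09 and 3.98, change 1.10), the organizer homeobox factor, and of Axin2 (1.08). Nodal, the ligand that keeps the streak going, fell (9.74 and 10.87, against 11.99 and 11.89, change -1.64 ± 0.32, adjusted p = 0.00157). Fgf8 missed the 2-fold limit (0.81), and Foxa2, Cer1, Cdx1, Cdx2, Wnt3a, Wnt8a and Tdgf1 did not pass, with changes between -0.22 and 0.52.

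Among the genes by which mesoderm cells migrate out of the streak, Aplnr, Nrp1 and Cdh11 had changes past 6. Of 23 measured, 15 rose and 2 fell, with a median change of 1.71. Nrp1, a co-receptor for semaphorins and vascular endothelial growth factor, measured 11.24 and 10.84 in DKO Flk1(+) arrays, against 4.62 and 3.74 in DKO ES arrays (6.86 ± 0.38, adjusted p = 1.12e-08). Cdh11, a mesenchymal cadherin, measured 10.46 and 10.37, against 3.62 and 3.93 (6.64 ± 0.25, adjusted p = 3.56e-10). The gap between the states was many times that between replicates for both. Mesp1, the basic helix-loop-helix factor of early cardiovascular mesoderm, measured 10.50 and 9.76, against 6.22 and 6.09 (3.97 ± 0.19, adjusted p = 2.75e-09), and its paralog Mesp2 rose by 2.13. Cxcr4, the chemokine receptor for CXCL12, rose by 4.38, and Ackr3, the second receptor of that ligand, by 3.44, while Cxcl12 itself fell (5.54 and 5.30, against 6.89 and 6.05, change -1.05). A like pattern held for the apelin receptor. Aplnr rose as above, whereas Apela, which encodes its ligand Elabela, fell (7.11 and 6.49, against 11.17 and 11.45, change -4.51 ± 0.57, adjusted p = 4.12e-05). The protocadherins Pcdh7, Pcdh8 and Pcdh19 rose by 4.38, 3.10 and 2.83, the netrin receptor Unc5c by 2.95, and Fn1, which encodes fibronectin, by 1.71. The guidance genes Slit2, Nrp2, Efnb2, Epha4, Rgs4 and Flrt2 did not pass, with changes between 0.18 and 1.03.

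Of 25 genes of the lateral plate and heart field, 16 rose and none fell, with a median change of 2.16. Hand2, a basic helix-loop-helix factor needed for the right ventricle, measured 10.66 and 10.19 in DKO Flk1(+) arrays, against 6.26 and 5.78 in DKO ES arrays (4.41 ± 0.39, adjusted p = 1.18e-06). This came from 1 of its 3 probe sets, and the other 2 changed by 0.20 and -0.02. Tbx20, a cardiac T-box factor, measured 11.23 and 11.71, against 7.55 and 6.96 (4.22 ± 0.51, adjusted p = 2.49e-05). The other probe sets of Tbx20 changed by 2.36 and 0.26. Gata6 measured 9.68 and 10.10, against 6.48 and 5.63 (3.84), and Gata4 8.73 and 8.39, against 5.37 and 4.81 (3.47 ± 0.20, adjusted p = 1.2e-08). For Gata4 the parental line, which has no transgene, was the higher of the Flk1(+) arrays, and both ES arrays carried the transgene and were low. Whether the Gata4 probe sets also read Gata4GR was not examined. The second probe set of Gata4 changed by 1.16. Isl1, the LIM homeobox factor of the second heart field, measured 8.40 and 7.68, against 5.70 and 5.56 (2.41 ± 0.30, adjusted p = 3.65e-05). Meis2 rose by 3.56, Wnt2 by 3.03, Msx2 by 2.56, Msx1 by 2.42, Foxf1 by 2.34, Meis1 by 2.31, Mef2c by 2.05 and Hand1 by 1.58. The other probe sets of Meis1 changed by 1.26 and 0.15. Smarcd3, the chromatin remodelling subunit of early cardiac mesoderm, rose by 2.42. The later cardiac factors did not pass: Nkx2-5 measured 6.02 and 6.07, against 6.08 and 5.96, Tbx5 6.20 and 6.34, against 6.16 and 6.28, and Gata5 4.93 and 4.45, against 4.68 and 4.70. Bmp4 did not pass (10.99 and 9.53, against 8.30 and 8.52, adjusted p = 0.0723), with its Flk1(+) arrays further apart than the lower of them was from the ES cells.

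**Figure D2:**
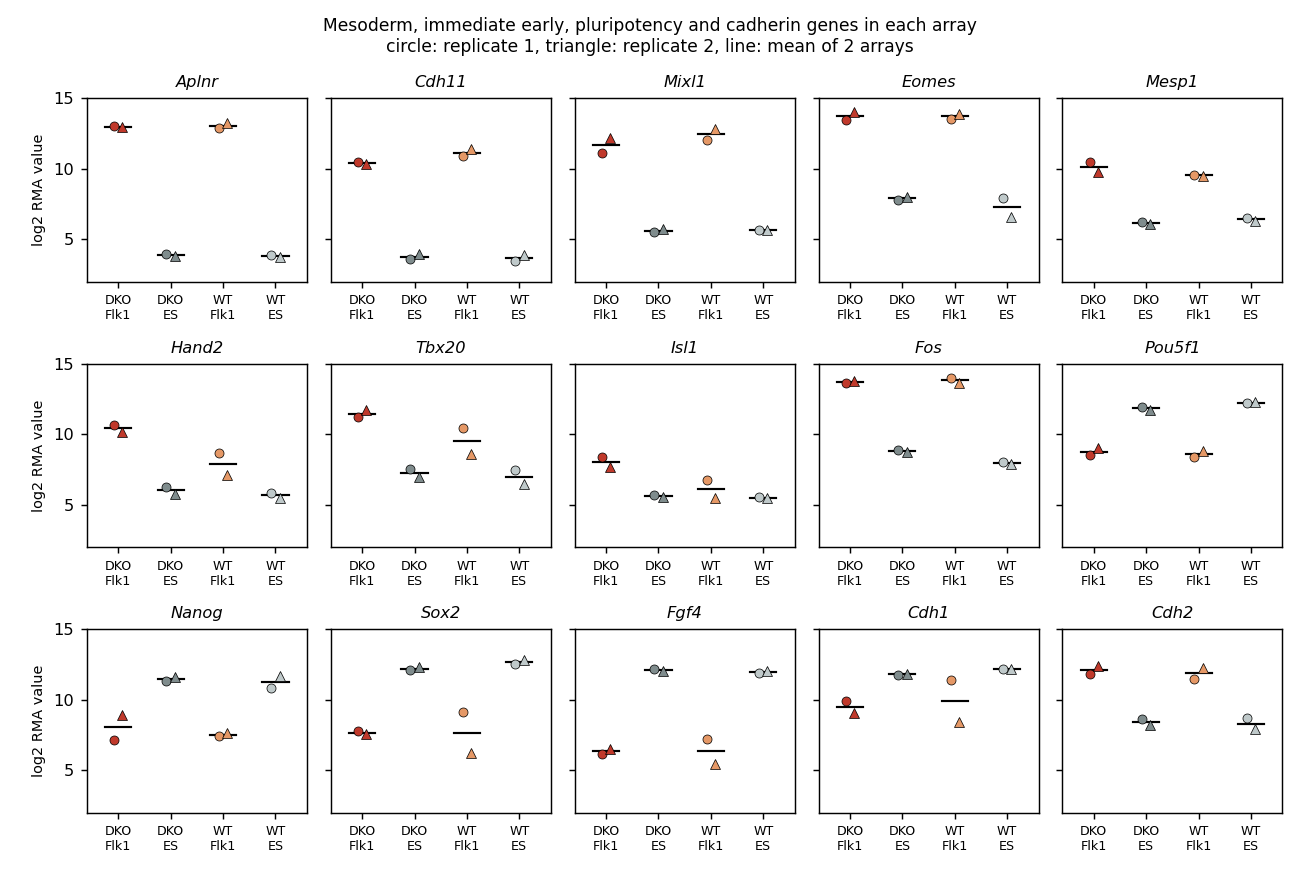
Log2 level of 15 genes in each array of DKO Flk1(+), DKO ES, WT Flk1(+) and WT ES cells (circles replicate 1, triangles replicate 2, lines the mean of 2 arrays). Aplnr, Cdh11, Mixl1, Eomes, Mesp1, Hand2, Tbx20, Isl1, Fos and Cdh2 are higher in both DKO Flk1(+) arrays than in both DKO ES arrays, and Pou5f1, Nanog, Sox2, Fgf4 and Cdh1 lower.

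Paraxial genes rose in part, 6 of 16 with 1 fall and a median change of 0.66. Rspo3, a Wnt amplifier, measured 11.04 and 10.32 in DKO Flk1(+) arrays, against 5.06 and 4.82 in DKO ES arrays (5.74 ± 0.42, adjusted p = 1.56e-07). The Notch ligands Dll3 and Dll1 rose by 3.59 and 2.62, and Tbx6, which turns neuromesodermal cells to mesoderm, by 2.40. Foxc1 and Foxc2 rose by 2.11 and 1.97. Tcf15, a later somite factor that ES cells also express, fell (-2.34), and Msgn1, Meox2 and Pax3 changed by 0.13, 0.02 and 0.08 without passing. Of 7 genes of the intermediate mesoderm Lhx1 alone rose, and Wt1 fell (-1.28, adjusted p = 0.0242). Of 33 Hox genes 3 rose and none fell, beside 4.56% risen and 5.62% fallen of all genes, with a median change of 0.05. These 3 are of the anterior paralog groups, Hoxb1 (8.35 and 7.68, against 4.17 and 3.93, change 3.96 ± 0.46), Hoxd1 (1.36) and Hoxb2 (1.28), and in each the parental line was the higher Flk1(+) array. Without that array Hoxd1 and Hoxb2 no longer passed.

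Markers of the blood and vascular progeny had moved both ways. Of 29 blood and endothelial genes 5 rose and 3 fell, beside 4.56% risen and 5.62% fallen of all genes, with a median change of 0.08 and a median level of 5.88 and 5.89 in the DKO Flk1(+) arrays, against 6.12 and 5.89 in the DKO ES arrays. The risen genes include Kdr, whose rise was set by the sort. Beside Kdr the risen genes were Etv2, the ETS factor that commits mesoderm to blood and endothelium (9.81 and 11.02, against 7.75 and 7.43, change 2.83 ± 0.32, adjusted p = 1.45e-05), Runx1 (7.97 and 8.22, against 4.92 and 5.20, 3.04), the decoy receptor Flt1 (1.61) and the embryonic globin Hbb-y (5.15 and 5.56, against 4.01 and 3.72, 1.49), the last not without probe sets annotated as cross-hybridising (adjusted p = 0.478). Tek, Cd34 and Pecam1, genes of endothelium, fell by 2.38, 2.05 and 1.50. Tal1 and Gata1, which define blood progenitors, changed by 0.23 and -0.05 without passing. In the mural list 3 of 13 genes rose and 1 fell: Rgs5, a pericyte regulator of G-protein signals (10.18 and 10.51, against 4.82 and 5.08, change 5.40 ± 0.59), Pdgfrb (3.74) and Myocd (1.72) rose, and Mcam fell (-2.01). Of 14 genes of cardiac muscle 2 rose and 3 fell. Myl7, the atrial light chain, rose (10.04 and 9.84, against 6.35 and 6.57, change 3.48 ± 0.22, adjusted p = 2.94e-08), as did Myl4 (1.06, adjusted p = 0.0456), whereas the sarcomere genes Myh6, Ttn and Myh7 fell by 3.53, 3.01 and 1.13.

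BMP signalling changed at several levels, with 9 of 23 genes risen, 1 fallen and a median change of 0.60. Among the ligands Bmp2 measured 10.40 and 9.99 in DKO Flk1(+) arrays, against 4.90 and 5.14 in DKO ES arrays (5.18 ± 0.43, adjusted p = 5.47e-07), and Bmp5 rose by 3.12. Bmper, which binds BMPs outside the cell, measured 10.46 and 11.40, against 5.92 and 4.54 (5.70 ± 0.38, adjusted p = 6.17e-08), with the Gata4GR clone the higher of the Flk1(+) arrays and the ES arrays more than 2-fold apart. Of the transducers Smad1 rose by 2.97 and Smad5 by 1.11. The feedback inhibitors Smad6 and Bambi rose by 2.30 and 1.50, and the antagonist genes Twsg1 and Fst by 1.18 and 1.28. The target gene Id2, in contrast, fell (9.37 and 8.24, against 11.41 and 10.82, change -2.31 ± 0.47, adjusted p = 0.00228), and Id3 changed by 0.60 without passing.

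In the Wnt list 12 of 31 genes rose and 2 fell, with a median change of 0.57. Ligands led, with Wnt5a at 9.64 and 10.22, against 4.61 and 4.46 in DKO ES arrays (5.39 ± 0.48, adjusted p = 1.3e-06), and with rises of 3.03 for Wnt2, 2.24 for Wnt3 and 1.98 for Wnt5b. The secreted inhibitors Frzb (8.86 and 9.94, against 4.86 and 4.56, 4.69) and Dkk1 (9.65 and 8.63, against 6.07 and 5.89, 3.17) rose too. Receptors split: Fzd1 and Fzd7 rose by 2.19 and 1.80, and Fzd5 fell by 2.12. Of the nuclear effector and target genes Lef1 rose by 1.97, Sp5 by 2.72 and Axin2 by 1.08, while the Wnt-inactivating enzyme Notum fell by 2.44.

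FGF and Nodal genes moved both ways. In the FGF list 6 of 20 genes rose and 4 fell, with a median change of 0.25. Fgf4, the autocrine ligand of ES cells, measured 6.18 and 6.52 in DKO Flk1(+) arrays, against 12.20 and 12.04 in DKO ES arrays (-5.77 ± 0.40, adjusted p = 9.91e-08), while Fgf3 and Fgf10 rose by 2.32 and 1.02. The receptor Fgfr1 rose by 1.57, the inhibitors Dusp4 and Spred1 by 1.75 and 1.12, and the inhibitor Spry4 and the ETS target Etv5 fell by 1.39 and 2.14. Of 12 Nodal pathway genes 2 rose and 4 fell, beside 4.56% risen and 5.62% fallen of all genes. Lefty1, the feedback inhibitor of Nodal, measured 7.23 and 7.17, against 9.72 and 10.40 (-2.86 ± 0.33, adjusted p = 1.71e-05), and the ligand Gdf3 6.37 and 6.50, against 11.57 and 11.35 (-5.02 ± 0.19). Pcsk6, a convertase that activates Nodal, fell by 1.39, and the activin receptors Acvr2a and Acvr1b rose by 1.17 and 1.26.

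Among 16 receptors and ligands of the PDGF, VEGF and Kit systems 5 rose and 2 fell, beside 4.56% risen and 5.62% fallen of all genes. The risen genes include Kdr and Pdgfra, whose rise was set by the sort, so that the count only describes the list. Outside the sorted receptors, Pdgfrb, the mural cell receptor, measured 7.81 and 9.05 in DKO Flk1(+) arrays, against 4.72 and 4.66 in DKO ES arrays, with the Gata4GR clone the higher. The Flk1 ligand gene Vegfa measured 8.79 and 8.07, against 5.96 and 6.52 (2.19 ± 0.38, adjusted p = 0.000632). Kit fell (6.99 and 6.47, against 8.76 and 8.93, change -2.12 ± 0.30), and Pdgfa fell by 1.04. Of 13 genes of retinoic acid handling, Cyp26a1 rose as above and Crabp1 by 1.23 (adjusted p = 0.0239), and the receptor Rarg fell by 1.70. Aldh1a2, which makes retinoic acid, measured 7.19 and 4.90, against 5.49 and 5.41, and its values overlapped, with only the parental line above the ES cells.

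Of the genes of mesenchymal transition 8 of 17 rose and 1 fell, with a median change of 0.99. Zeb2, a repressor of E-cadherin, measured 7.83 and 8.22 in DKO Flk1(+) arrays, against 4.23 and 4.0 in DKO ES arrays (3.91 ± 0.34, adjusted p = 8.22e-07). Cdh2, which encodes N-cadherin, measured 11.83 and 12.38, against 8.66 and 8.22 (3.66 ± 0.41, adjusted p = 1.34e-05). Twist1 rose by 2.07, Snai1 by 1.57, Vim by 1.24 and Zeb1 by 1.16, and Snai2 did not pass (8.49 and 6.92, against 7.34 and 6.98). Of 22 epithelial genes none rose and 9 fell, with a median change of -1.14. Cdh1, which encodes E-cadherin, measured 9.93 and 9.04, against 11.77 and 11.85 (-2.33 ± 0.74, adjusted p = 0.0351). Both Flk1(+) arrays were below both ES arrays, but the standard error was large and the gene no longer passed without either ES array (adjusted p = 0.122 and 0.138) or without the Flk1(+) array of the Gata4GR clone (0.184). Epcam fell by 2.60, the splicing factor Esrp1 by 2.75, Grhl2 by 2.09, Cldn7 by 1.65 and Jup by 1.63, while the simple keratin gene Krt8 did not pass (12.68 and 12.17, against 11.82 and 11.99).

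Of 24 matrix genes 10 rose and none fell, with a median change of 0.97. Has2, the hyaluronan synthase, measured 9.63 and 10.64 in DKO Flk1(+) arrays, against 6.94 and 6.67 in DKO ES arrays (3.33 ± 0.42, adjusted p = 3.76e-05). Fbln2 and Fbn2, of elastic fibres and microfibrils, rose by 3.21 and 2.46, the proteoglycan gene Vcan by 2.08, and the basement membrane collagens Col4a1 and Col4a2 by 1.39 and 1.03.

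The pluripotency genes fell almost throughout. Of 27 measured, 23 fell and 1 rose, with a median change of -3.22, and the median level was 7.29 and 7.76 in DKO Flk1(+) arrays, against 10.99 and 11.25 in DKO ES arrays. Pou5f1, which encodes Oct3/4, measured 8.52 and 9.01, against 11.92 and 11.74 (-3.06 ± 0.23, adjusted p = 2.16e-07). Nanog measured 7.17 and 8.93, against 11.33 and 11.62 (-3.43 ± 0.41, adjusted p = 2.41e-05), with the Gata4GR clone more than 2-fold above the parental line. Sox2 measured 7.76 and 7.60, against 12.10 and 12.32 (-4.53 ± 0.60, adjusted p = 6.38e-05). None of the 3 overlapped between the states. Zfp42 (Rex1) and Fbxo15, markers of the undifferentiated state, fell by 5.32 and 5.55, the nuclear receptor Nr0b1 by 5.52, the ES cell Ras gene Eras by 5.14 and Dppa2 by 5.05. Prdm14 and Tfcp2l1, of the naive state, fell by 4.33 and 3.02, and Klf2, Klf5 and Esrrb by 3.29, 1.79 and 1.83. The gene that rose was Tbx3 (9.97 and 10.79, against 8.14 and 8.31, change 2.16 ± 0.26), which lateral plate mesoderm also expresses. Sall4 (13.06 and 13.05, against 13.23 and 13.09) and Lin28a (12.40 and 11.80, against 12.51 and 12.48) did not pass, and Klf4 missed the 2-fold limit (-0.61). Among 12 genes of the formative epiblast, which follows the naive state, 2 rose and 5 fell. Lef1 and Fgf5 were the risen genes, Fgf5 at 10.21 and 10.61, against 8.78 and 9.06 (change 1.49, adjusted p = 0.0473), and Pou3f1, Dnmt3l, Foxd3, Tcf15 and Sox3 fell by 4.2, 4.59, 2.64, 2.34 and 1.27. Otx2 did not pass (10.22 and 10.64, against 10.20 and 10.38).

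Of 15 genes of the DNA methylation machinery none rose and 4 fell, Dnmt3b among them, with a median change of -0.62. Dnmt3l, the catalytically inactive partner of DNMT3A and DNMT3B, measured 7.86 and 7.51 in DKO Flk1(+) arrays, against 12.32 and 12.22 in DKO ES arrays (-4.59 ± 0.30, adjusted p = 5.1e-08). Tet1 and Tet2, which oxidize 5-methylcytosine, measured 9.09 and 8.74, against 11.69 and 11.73 (-2.80 ± 0.26), and 6.83 and 6.29, against 8.55 and 8.60 (-2.02 ± 0.17). The maintenance genes did not pass, Dnmt1 with a change of -0.56 and Uhrf1 with -0.37.

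Germline genes, many of which ES cells transcribe, mostly fell. Of 24 measured, 14 fell and none rose, with a median change of -1.33. Beside Morc1 the deepest falls were those of Mael, a piRNA pathway gene (4.29 and 4.34 in DKO Flk1(+) arrays, against 8.82 and 8.57 in DKO ES arrays, change -4.38 ± 0.20), Tdrd12 (-4.21), the RNA-binding gene Dazl (4.15 and 6.16, against 8.60 and 9.36, change -3.83 ± 0.45) and the meiotic gene Hormad1 (-3.16). Tex19.1 and Piwil2, which act against transposons, fell by 2.20 and 2.28, while the helicase Ddx4 and the synaptonemal complex gene Sycp3 fell by only 1.34 and 1.08. For Dazl, Tex19.1 and Rhox13 the Gata4GR clone was more than 2-fold above the parental line among the Flk1(+) arrays, and still below both ES arrays.

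Genes that mark the rare 2-cell-like cells of ES cultures were next. Of 7 measured 6 fell and none rose, with a median change of -2.72. Usp17la, a deubiquitinase, measured 5.17 and 5.80 in DKO Flk1(+) arrays, against 10.48 and 9.27 in DKO ES arrays (-4.39 ± 0.42, adjusted p = 2.43e-06), and Ubtfl1 3.59 and 3.40, against 8.25 and 6.58 (-3.92 ± 0.34, adjusted p = 9.06e-07). Zfp352 measured 5.73 and 6.10, against 8.85 and 8.16 (-2.58 ± 0.20). Both ES arrays were above both Flk1(+) arrays in each, and the first ES array was the higher. Pramel6 and Pramel7, of a family with many near copies, fell by 2.72 and 3.31, but without probe sets annotated as cross-hybridising the remaining ones changed by only -0.02 (adjusted p = 0.945) and -0.54 (0.0067). Tcstv3 fell by 1.40 and Tcstv1 did not pass (-0.32).

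Among 23 imprinted genes 5 rose and 1 fell, beside 4.56% risen and 5.62% fallen of all genes. Igf2, the fetal growth factor, measured 12.23 and 11.10 in DKO Flk1(+) arrays, against 9.01 and 9.30 in DKO ES arrays (2.51 ± 0.59, adjusted p = 0.00628), and Peg3 13.49 and 13.66, against 11.47 and 11.39 (2.15 ± 0.18). Phlda2, Sgce and Igf2r rose by 1.70, 1.65 and 1.61. The noncoding Meg3 fell (5.48 and 6.62, against 8.20 and 9.62, change -2.86 ± 0.60, adjusted p = 0.00293), with more than a 2-fold gap between replicates in both states, and its 11 probe sets ranged from -2.86 to 0.05.

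Of 20 immediate early genes, which respond within minutes to dissociation as to growth factors, 10 rose and none fell in the sorted cells, with a median change of 1.06, and their median level was 9.66 and 10.55 in DKO Flk1(+) arrays, against 9.07 and 8.70 in DKO ES arrays. Fosb measured 10.71 and 11.68, against 4.58 and 4.75 (6.53 ± 0.24, adjusted p = 3.56e-10), and Fos 13.64 and 13.77, against 8.88 and 8.73 (4.90 ± 0.22, adjusted p = 1.56e-09). Both groups were tight relative to the gap. The median change of the list was 0.44 in the parental line and 1.48 in the Gata4GR clone, each against the ES mean. Egr2, Jun, Atf3 and Egr1 rose by 4.03, 3.37, 2.52 and 2.43. The Flk1(+) cells were trypsinized and sorted, and the part of these steps in the result was not tested. Of 23 cell cycle genes 1 rose, Ccnd2 (10.40 and 10.62, against 8.54 and 8.58, change 1.95), and 1 fell, Ccne1 (-1.01), with a median change of -0.33. Of 19 genes of glycolysis and hypoxia Adm and Vegfa rose (2.67 and 2.19) and Pdk1 fell (-1.82), with a median change of -0.15. Of all genes 4.56% rose and 5.62% fell, and the cell cycle counts lie near these shares.

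Markers of the other lineages that such cultures could hold moved both ways, beside 4.56% risen and 5.62% fallen of all genes. Of 24 primitive and visceral endoderm genes 3 rose and 2 fell. Their median level was 6.42 and 6.31 in DKO Flk1(+) arrays, against 6.38 and 6.20 in DKO ES arrays. In primitive endoderm (PE), made from the DKO ES clone with dexamethasone, it was 10.82 and 10.95. The defining genes Sox17 (5.91 and 5.09, against 6.31 and 5.87), Sox7 (5.37 and 5.89, against 5.53 and 5.03) and Dab2 (8.82 and 8.57, against 8.55 and 8.30) did not pass. Those that rose were Gata6 and Col4a1, which mesoderm also expresses, and Pth1r (8.46 and 8.89, against 6.44 and 6.19, change 2.36), and those that fell Lama1 (-1.92) and Cubn (-1.59). The fall of Cubn did not hold without probe sets annotated as cross-hybridising. Of 14 definitive endoderm genes 2 rose, Cxcr4 and Gsc, and 4 fell, of 15 neuroectoderm genes none rose and 4 fell, and of 12 trophoblast genes 3 rose, Eomes, Hand1 and Plac1 (2.13). Median levels were 6.64 and 5.58 in DKO Flk1(+) arrays, against 6.25 and 6.22 in DKO ES arrays, for definitive endoderm, 5.29 and 5.24, against 6.0 and 5.90, for neuroectoderm, and 8.76 and 8.07, against 6.70 and 6.95, for trophoblast. What part cells of these lineages had in the results was not tested.

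**Figure D3:**
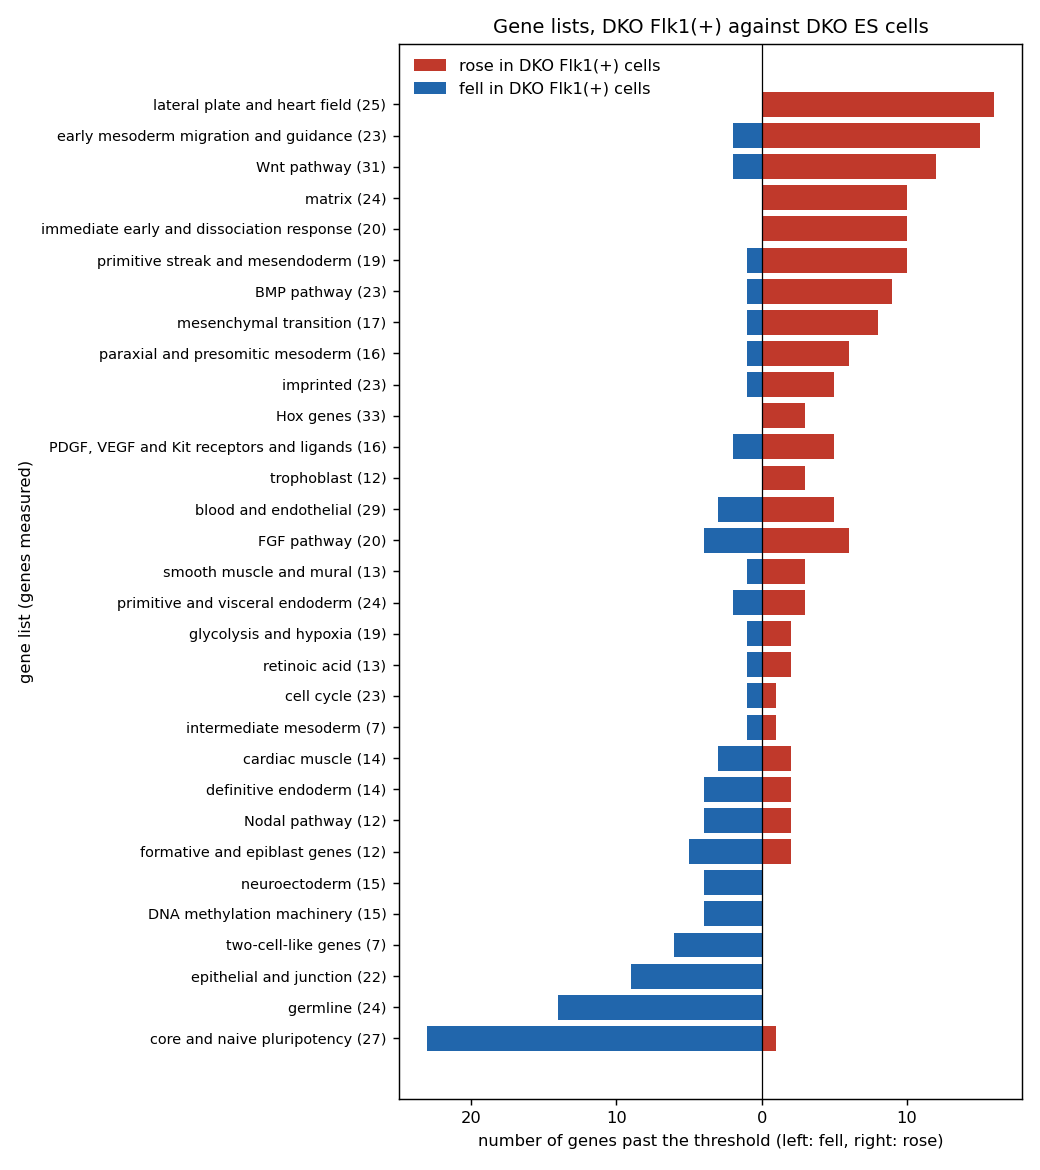
Number of genes of each of 31 lists that rose (red, to the right) or fell (blue, to the left) in DKO Flk1(+) cells against DKO ES cells, with the number measured in brackets. Lateral plate and heart field has 16 risen and no fallen genes, early mesoderm 15 risen and 2 fallen, and pluripotency 23 fallen and 1 risen.

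Among the 229 genes of the lists and of the largest changes that passed, 47 no longer did when 1 of the 4 DKO arrays was left out. Of those named here, given with the adjusted p that remained, the call was lost without the DKO Flk1(+) array of the parental line for Acvr1b (0.164), Axin2 (0.0755), Ccne1 (0.199), Cldn7 (0.0871), Col4a2 (0.223), Crabp1 (0.207), D1Pas1 (0.152), Fgf5 (0.0822), Gsc (0.026), Hoxb2 (0.0157), Hoxd1 (0.017), Igf2 (0.0728), Myh7 (0.0716), Pcsk6 (0.00362), Plac1 (0.088), Rhox13 (0.0568), Sox3 (0.0843), Spred1 (0.00965), Sycp3 (0.0957) and Wt1 (0.188). It was lost without that of the Gata4GR clone for Cdh1 (0.184), Cubn (0.116), Cxcl12 (0.0894), Dnmt3b (0.023), Fgf10 (0.00339), Fgf5 (0.188), Foxa1 (0.0683), Fst (0.0826), Myl4 (0.433), Myocd (0.0768), Pdgfa (0.0683) and Pdk1 (0.0671). It was lost without DKO ES replicate 1 for Acvr1b (0.0853), Axin2 (0.0624), Ccne1 (0.0855), Cdh1 (0.122), Cldn7 (0.0804), Col4a2 (0.173), Crabp1 (0.164), Cubn (0.169), Cxcl12 (0.219), D1Pas1 (0.326), Fgf5 (0.2), Foxa1 (0.0941), Fst (0.111), Igf2 (0.0515), Myl4 (0.168), Sox3 (0.0685), Tcstv3 (0.00116), Twsg1 (0.0634), Wt1 (0.128) and Zeb1 (0.00443), and without DKO ES replicate 2 for Acvr1b (0.0849), Ccne1 (0.131), Cdh1 (0.138), Cldn7 (0.0885), Crabp1 (0.0506), Fgf5 (0.118), Meg3 (0.0553), Myh7 (0.0581), Myl4 (0.139), Plac1 (0.0629), Smad5 (0.00565), Sycp3 (0.0634) and Wt1 (0.0767). Where the p remained under 0.05 the change had come under 2-fold. Aplnr, Eomes, Mixl1, Mesp1, Hand2, Isl1, Pou5f1, Nanog and Sox2 passed whichever of the 4 was left out.

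Set directly against DKO PE, made with dexamethasone from the Gata4GR clone, DKO Flk1(+) cells stood apart in both directions. Of the Flk1(+) arrays, that of the parental line did not come from this clone. Aplnr measured 13.05 and 12.93 in DKO Flk1(+) arrays, against 4.22 and 4.10 in DKO PE arrays (difference 8.83 ± 0.23, adjusted p = 3.27e-12), and Mixl1 11.13 and 12.18, against 5.52 and 5.51 (6.13). Cdh11 was 6.82 and Cdh2 6.09 higher in DKO Flk1(+) cells. Sox17 measured 5.91 and 5.09, against 13.04 and 13.03 (-7.53 ± 0.73, adjusted p = 1.89e-06), and Lama1 6.98 and 5.77, against 13.83 and 14 (-7.55 ± 0.38). Among genes that had risen from the ES state, Bmper, Gata6, Gata4 and Pdgfra were nevertheless below their DKO PE levels, by differences of -1.66, -2.18, -1.87 and -1.33. Nanog and Pou5f1 were above theirs (3.22 and 1.75).

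The WT comparison was used to ask which of these changes differed with genotype. In WT Flk1(+) cells 1119 genes rose, 6.15%, and 1147 fell, 6.3%. Of the genes that rose, 648 did so in both genotypes, 78.1% of the DKO list and 57.9% of the WT list, and of those that fell 721, 70.5% of the DKO list and 62.9% of the WT list. A further 182 genes rose in DKO without passing in WT cells, but in only 2 of them did the difference between the genotypes itself pass. For the 302 genes that fell in DKO without passing in WT cells it did in 55. The difference, DKO change minus WT change, passed for 144 genes in all, with 37 above WT, 0.203% of those tested, and 107 below WT, 0.588%. No gene rose in DKO and fell in WT cells, and 3 did the reverse, Arhgef26, Foxa1 and Pdgfrl.

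These calls lean on the spread of all 20 arrays. With the 8 ES and Flk1(+) arrays alone, which leaves 4 residual degrees of freedom, 0 genes passed above WT and 1 below, while 569 and 683 had an unadjusted p under 0.05 in limma. The 35 genes followed from the 20-array fit, the 12 largest differences in each direction and all list members that passed, had an adjusted p between 0.0628 and 0.451 there. With all 20 arrays 15 of the 35 no longer passed when 1 of the 8 arrays was left out, namely Arg2, Ccser1, Cd24a, Col4a2, Dhx16, F3, Fgf1, Fgf8, Fst, Lzts1, Rpl39l, Serpinb6c, Sycp3, Tcstv3 and Tet2, with adjusted p-values between 0.0508 and 0.174.

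**Figure D4:**
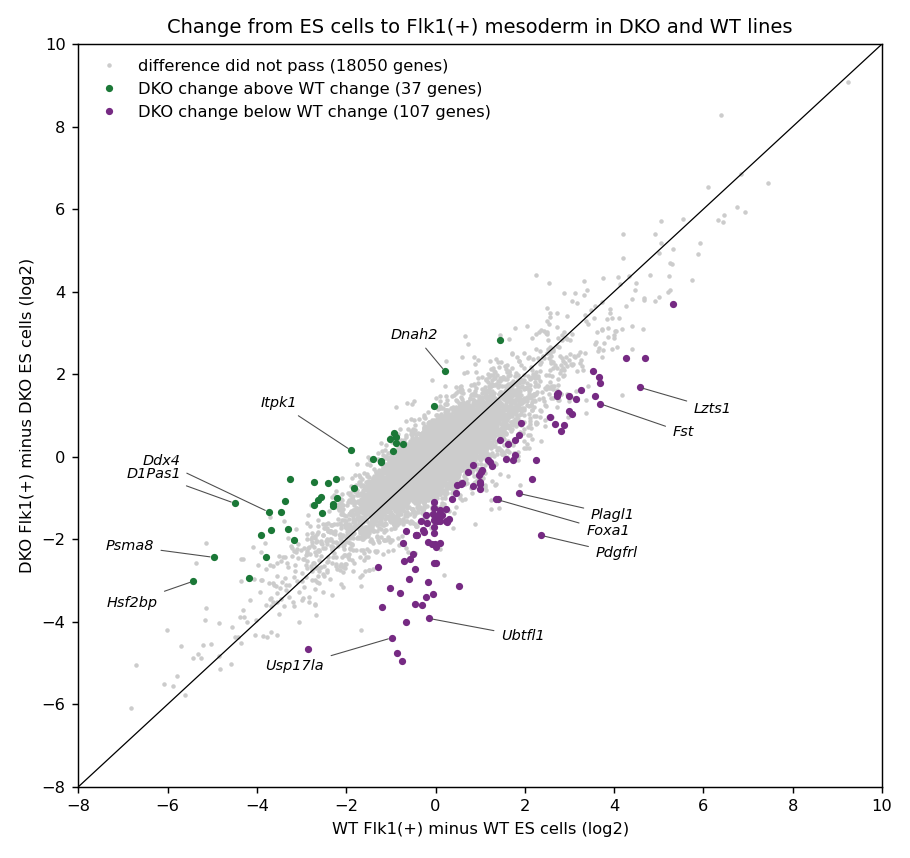
Change from ES to Flk1(+) cells in DKO (vertical axis) against that in WT (horizontal axis) for 18194 genes, in log2 units, with the line of equal change. Green points are the 37 genes whose DKO change was above and purple points the 107 whose DKO change was below the WT change, and 40 of the purple points rose and 4 fell in WT cells.

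In the primitive streak list the differences of 2 of 19 genes passed, Gsc and Fgf8, both below WT. The lists of early mesoderm (23 genes), lateral plate and heart field (25), paraxial mesoderm (16) and pluripotency (27) had none. Over all genes only 0.203% were above and 0.588% below WT, so that a count of 0 in lists of this size says nothing about their members. The lateral plate list had 16 risen genes in DKO and 11 in WT cells, with median changes of 2.16 and 0.87. Hand2 measured 10.66 and 10.19 in DKO Flk1(+) arrays, against 8.68 and 7.14 in WT Flk1(+) arrays, and its changes of 4.41 and 2.24 differed by 2.17 ± 0.55 (adjusted p = 0.106). Isl1 measured 8.40 and 7.68, against 6.73 and 5.48, with a difference of 1.81 ± 0.43 (adjusted p = 0.074), and Meis1 8.07 and 8.09, against 6.84 and 5.12, with a difference of 2.08 ± 0.56 (adjusted p = 0.127). Other probe sets gave differences of changes of 0.06 and -0.24 for Hand2, 1.40 for Isl1, and 0.95 and 0.05 for Meis1. Hand2, Isl1 and Meis1 are examples from the list. How many genes differed in level, in the list or over all genes, is not given. All 3 were higher in both DKO than in both WT Flk1(+) arrays. Their levels in Flk1(+) cells differed past the threshold, by 2.51, 1.93 and 2.10 in that order, whereas the differences of changes did not pass. Asb4 likewise measured 13.01 and 13.10, against 11.21 and 9.80, a level difference of 2.54 ± 0.39 (adjusted p = 0.00477), while its changes differed by 1.87 ± 0.55 (adjusted p = 0.178).

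Of 19 streak, 24 matrix and 23 BMP genes the differences of 2, 2 and 1 passed, all below WT, beside 0.588% of all genes. Lzts1, Foxa1, Pdgfrl, F3 and Plagl1, also given here, belong to none of these lists. Gsc measured 5.42 and 4.84 in DKO Flk1(+) and 4.09 and 3.98 in DKO ES arrays, against 6.54 and 7.12 in WT Flk1(+) and 3.90 and 3.77 in WT ES arrays (difference of changes -1.90 ± 0.30, adjusted p = 0.00673). Col4a1 measured 11 and 10.72 in DKO Flk1(+) and 9.52 and 9.42 in DKO ES arrays, against 11.92 and 11.87 in WT Flk1(+) and 9.10 and 8.39 in WT ES arrays (-1.76 ± 0.25, adjusted p = 0.00319), and its partner chain gene Col4a2 differed by -2.03 ± 0.42. For both genes the WT Flk1(+) arrays were above the DKO Flk1(+) arrays. Fst, the activin and BMP antagonist, differed by -2.41 ± 0.49 (adjusted p = 0.0325), Fgf8 by -1.10 ± 0.23 and Lzts1 by -2.89 ± 0.50. Foxa1, the endoderm pioneer factor, fell in DKO and rose in WT cells: it measured 5.68 and 5.50 in DKO Flk1(+) and 6.73 and 6.51 in DKO ES arrays, against 6.68 and 6.43 in WT Flk1(+) and 5.80 and 4.60 in WT ES arrays (-2.38 ± 0.38, adjusted p = 0.00704). Pdgfrl, a PDGF receptor-like gene, was alike, at 6.14 and 6.13 in DKO Flk1(+) and 8.60 and 7.47 in DKO ES arrays, against 8.49 and 7.53 in WT Flk1(+) and 5.57 and 5.71 in WT ES arrays, with a larger difference than any other named gene (-4.28 ± 0.43, adjusted p = 0.000224). F3, which encodes tissue factor, and Plagl1, an imprinted zinc finger gene, differed by -2.70 ± 0.48 and -2.75 ± 0.41, but the other 2 probe sets of Plagl1 by only -0.04 and -0.49.

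Most of the genes below WT were higher in the DKO ES cells to begin with. Of the 107, 66 were above WT already in ES cells and 16 below WT in Flk1(+) cells by the same threshold, and 59 fell in DKO against 4 in WT cells. The same arrays chose the 107, so these counts only describe those genes. The share of all genes that differed between the ES cells is not given. The lists were chosen with earlier results of these data known, so that a list count here is a description only. Over all genes 0.588% were below WT. The 2-cell-like list had 6 of its 7 genes among the 107. Those were Usp17la, Ubtfl1, Zfp352, Tcstv3, Pramel6 and Pramel7, but without the probe sets annotated as cross-hybridising the differences of Pramel6 and Pramel7 were 0.05 (adjusted p = 0.974) and -0.25 (adjusted p = 0.718). Ubtfl1 measured 3.59 and 3.40 in DKO Flk1(+) and 8.25 and 6.58 in DKO ES arrays, against 3.53 and 3.56 in WT Flk1(+) and 3.74 and 3.65 in WT ES arrays (difference of changes -3.77 ± 0.48, adjusted p = 0.00151). Usp17la measured 5.17 and 5.80 in DKO Flk1(+) and 10.48 and 9.27 in DKO ES arrays, against 4.82 and 4.76 in WT Flk1(+) and 6.56 and 4.99 in WT ES arrays (-3.41 ± 0.59, adjusted p = 0.0129). The DKO ES arrays were the highest in both, and the Flk1(+) arrays of the genotypes were close. Spesp1, of the sperm acrosome (4.40 and 4.22 in DKO Flk1(+) and 8.52 and 7.24 in DKO ES, against 4.51 and 3.95 in WT Flk1(+) and 4.70 and 4.70 in WT ES), Pramel18, Ccser1, Arg2, an arginase, and the growth factor gene Fgf1 had the same form. In each of these, as in the 2-cell-like genes Ubtfl1, Usp17la and Zfp352, the first DKO ES array was the higher, for Arg2 with 8.42 and 6.38.

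Of the 24 germline genes 3 were among the 37 above WT, namely Ddx4, Sycp3 and Rpl39l, while 21 did not pass, and the median difference of the list was 0.07. Over all genes 0.203% were above and 0.588% below WT. Germline genes outside the list differed both ways. Hsf2bp, Psma8 and D1Pas1, given below, were above WT, and Spesp1 (-3.10), Terb2 (-1.90) and Magea4 (-2.19) were below. Of the 37, 15 were above WT in Flk1(+) cells and 14 below WT in ES cells, and 17 fell in DKO against 29 in WT cells. The same arrays chose the 37, so these counts only describe those genes. Ddx4 measured 7.37 and 7.84 in DKO Flk1(+) and 9.03 and 8.87 in DKO ES arrays, against 5.46 and 4.57 in WT Flk1(+) and 8.79 and 8.72 in WT ES arrays (difference of changes 2.40 ± 0.36, adjusted p = 0.00477). The ES arrays of the genotypes were alike, and both DKO Flk1(+) arrays were above both WT ones. Sycp3 had the same form, with 5.84 and 6.29 in DKO Flk1(+) and 7.12 and 7.18 in DKO ES arrays, against 4.72 and 3.51 in WT Flk1(+) and 7.37 and 7.59 in WT ES arrays (2.28 ± 0.39, adjusted p = 0.0117). Hsf2bp, a meiotic recombination gene outside that list, as are Psma8 and D1Pas1, measured 7.19 and 6.83 in DKO Flk1(+) and 10.02 and 10.04 in DKO ES, against 5.24 and 5.0 in WT Flk1(+) and 10.26 and 10.84 in WT ES (2.41 ± 0.32, adjusted p = 0.00201). Psma8, the testis proteasome subunit, differed by 2.53 ± 0.26 and the ribosomal protein gene Rpl39l by 2.01 ± 0.37. In D1Pas1, a testis helicase (5.86 and 6.34 in DKO Flk1(+) and 7.91 and 6.53 in DKO ES, against 4.69 and 4.14 in WT Flk1(+) and 9.05 and 8.78 in WT ES, difference 3.37 ± 0.46), the DKO ES cells were also lower than the WT ES cells. For Exoc3l and Insyn2b that ES difference passed as well, and Itpk1 hardly changed in DKO cells (0.15) while it fell in WT cells (-1.89). Dnah2, an axonemal dynein, rose in DKO (2.07) and did not pass in WT cells (0.21). Tet2 fell in both, by 2.02 in DKO and 3.16 in WT cells (difference 1.14 ± 0.23, adjusted p = 0.0343), and differed already in the ES cells (-1.04).

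**Figure D5:**
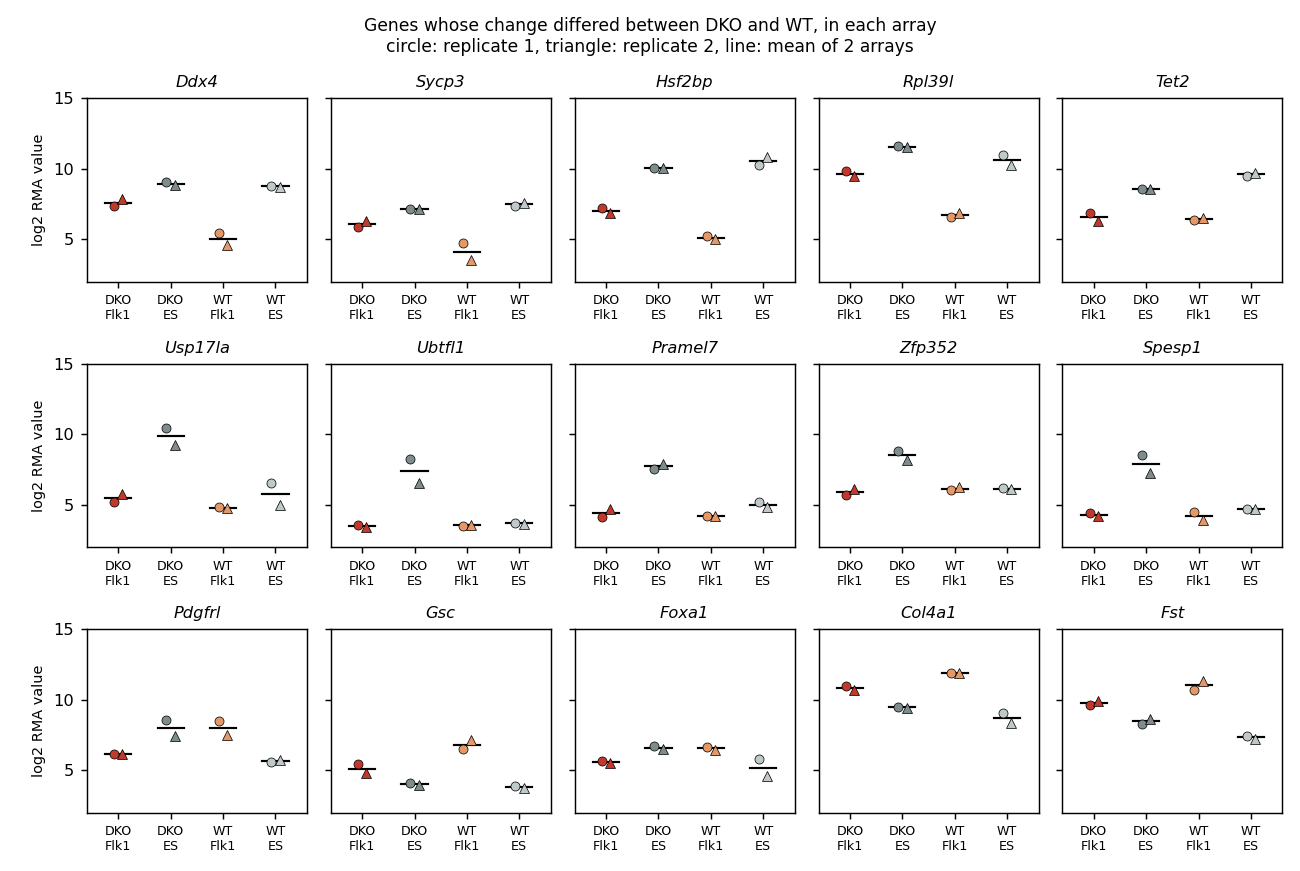
Log2 level of 15 genes whose change differed between DKO and WT cells, in each array of DKO Flk1(+), DKO ES, WT Flk1(+) and WT ES cells (circles replicate 1, triangles replicate 2, lines the mean of 2 arrays). Ddx4, Sycp3, Hsf2bp and Rpl39l stay higher in DKO than in WT Flk1(+) arrays, whereas Usp17la, Ubtfl1, Pramel7, Zfp352 and Spesp1 are highest in the 2 DKO ES arrays.

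The promoters of some of these genes are shown as examples. DNMT3A and DNMT3B place methylation mainly at CG dinucleotides, but whether promoter CG content goes with the direction of the difference was not tested. Each window runs from 250 bases before to 50 bases after the RefSeq gene start in GRCm38.p6, on the gene's strand, with each CG in capitals. A window of this kind exists here for 14453 of the 18194 genes and holds a median of 17 CG, with 56% of the windows at 15 or more and 18.6% under 5. Ddx4 (chr13:112652261-112652560, minus strand) holds 38 and Hsf2bp (chr17:32034459-32034758, minus strand) 20. Pramel7 (chr2:87492369-87492668, minus strand) and Usp17la (chr7:104856766-104857065, plus strand) hold 1 each. The difference of Pramel7 did not pass without cross-hybridising probe sets.
Ddx4: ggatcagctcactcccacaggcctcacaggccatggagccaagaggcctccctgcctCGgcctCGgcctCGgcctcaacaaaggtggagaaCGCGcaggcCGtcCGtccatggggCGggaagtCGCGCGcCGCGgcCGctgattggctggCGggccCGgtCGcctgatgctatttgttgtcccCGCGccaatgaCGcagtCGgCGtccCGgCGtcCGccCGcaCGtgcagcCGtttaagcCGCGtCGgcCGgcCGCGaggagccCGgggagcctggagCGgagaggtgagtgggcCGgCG
Hsf2bp: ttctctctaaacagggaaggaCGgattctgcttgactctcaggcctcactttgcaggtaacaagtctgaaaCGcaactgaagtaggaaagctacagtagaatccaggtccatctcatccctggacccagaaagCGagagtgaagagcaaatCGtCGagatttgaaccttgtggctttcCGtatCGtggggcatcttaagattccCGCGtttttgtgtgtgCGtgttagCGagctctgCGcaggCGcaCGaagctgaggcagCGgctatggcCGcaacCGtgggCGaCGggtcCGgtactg
Pramel7: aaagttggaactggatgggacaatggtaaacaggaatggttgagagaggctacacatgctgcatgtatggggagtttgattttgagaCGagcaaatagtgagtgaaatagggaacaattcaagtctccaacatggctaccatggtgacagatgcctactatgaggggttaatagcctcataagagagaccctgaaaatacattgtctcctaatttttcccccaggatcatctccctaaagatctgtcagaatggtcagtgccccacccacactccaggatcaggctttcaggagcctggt
Usp17la: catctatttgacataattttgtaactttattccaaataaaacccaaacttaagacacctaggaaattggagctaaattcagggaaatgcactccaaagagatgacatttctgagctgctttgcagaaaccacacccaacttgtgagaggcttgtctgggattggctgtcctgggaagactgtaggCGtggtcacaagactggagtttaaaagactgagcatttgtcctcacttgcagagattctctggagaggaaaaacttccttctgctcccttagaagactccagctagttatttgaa

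Windows of other genes named above differed widely. Of genes above WT, Sycp3 held 15, D1Pas1 15, Rpl39l 17, Tet2 57 and Dnah2 5. Of genes below WT, Ubtfl1 held 0, Pramel6 3, Zfp352 2, Spesp1 19, Col4a1 37 and Ccser1 46. Of the germline list 21 of 24 genes had a window, with a median of 17 CG and 14 windows at 15 or more, and of the 37 genes above WT 31 had one, with a median of 16, both close to the median of 17 over all genes with a window. For the 107 genes below WT, the 2-cell-like list and the risen and fallen genes no comparison is drawn, because only 72%, 71.4%, 79.3% and 77.7% of them had a window. Over all genes 79.4% had one, so that the median of 17 carries a like limit. Such counts describe the reference sequence, and methylation was not measured on these arrays.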

How the data were processed

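Total RNA from 2 biological replicates of each of 10 groups was amplified by 2-cycle labelling from 50 ng and hybridised to 20 Affymetrix MOE430v2 arrays. The deposited values are log2 intensities that the authors obtained by RMA in Bioconductor, and whether all arrays were summarized together is not given in the sources used here. The values were used without further normalization (array medians 5.79 to 5.87). Of 45101 probe sets, 34958 carried 1 gene symbol, 932 several and 9211 none. Of 18194 genes 9012 had more than 1 probe set, and the one with the highest mean over the 20 arrays was taken.

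The 20 arrays entered a single limma 3.58.1 model in R 4.3.3, with a mean for each group and empirical Bayes moderation (10 residual and 4.54 prior degrees of freedom), with Benjamini-Hochberg adjustment over all genes and thresholds of 0.05 and 2-fold. The difference between genotypes was a contrast of the same fit. With 2 arrays a group, an exact permutation test could not go below p = 0.333, and the number of arrays limits the precision. The scripts were tested on simulated data. Named genes were the 12 largest changes and differences in each direction among genes whose arrays did not overlap, leaving out clone names, and up to 8 members of each list with the largest absolute change. Further members, and the genes that changed in opposite directions in the genotypes, were named after their values were seen. The members and the 31 lists were chosen with earlier results of these data known. Alternatives changed the arrays, blocks, filters, probe sets, scaling and priors. Promoter windows are those of RefSeq, GRCm38.p6.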

Additional observations from a re-analysis of the deposited data

Results flagged for a closer look

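For 35 genes the change from ES to Flk1(+) cells differed between DKO and WT cells by limma's test of that difference (DKO change minus WT change, log2, Benjamini-Hochberg adjusted p). None of them passed with the 8 ES and Flk1(+) arrays alone.

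Above WT the difference was 3.37 for D1Pas1 (adjusted p = 0.00222), 2.73 for Exoc3l (0.000978), 2.53 for Psma8 (0.000246), 2.41 for Hsf2bp (0.00201), 2.40 for Ddx4 (0.00477), 2.28 for Sycp3 (0.0117), 2.12 for Insyn2b (0.00362), 2.04 for Itpk1 (0.000579), 2.01 for Rpl39l (0.0181), 1.90 for Serpinb6c (0.0354), 1.86 for Dnah2 (0.00498), 1.67 for Dhx16 (0.0157) and 1.14 for Tet2 (0.0343). Below WT it was -4.28 for Pdgfrl (0.000224), -2.89 for Lzts1 (0.0134), -2.75 for Plagl1 (0.0045), -2.70 for F3 (0.0154), -2.41 for Fst (0.0325), -2.38 for Foxa1 (0.00704), -2.03 for Col4a2 (0.0339), -1.90 for Gsc (0.00673), -1.76 for Col4a1 (0.00319), -1.75 for Cd24a (0.0354) and -1.10 for Fgf8 (0.0339).

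The difference was also below WT for genes that were high in DKO ES cells, with -3.77 for Ubtfl1 (0.00151), -3.41 for Usp17la (0.0129), -3.28 for Ccser1 (0.0104), -3.27 for Arg2 (0.0208), -3.18 for Pramel18 (0.00162), -3.10 for Spesp1 (0.00154), -2.58 for Zfp352 (0.000367), -2.54 for Fgf1 (0.0244), -2.52 for Pramel7 (0.00044), -2.27 for Pramel6 (0.000129) and -1.34 for Tcstv3 (0.04). Neither Pramel7 (-0.25, adjusted p = 0.718) nor Pramel6 (0.05, adjusted p = 0.974) passed without cross-hybridising probe sets.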

How the results depend on the processing

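The counts for DKO Flk1(+) against DKO ES cells stayed within 1.5 times of 830 risen and 1023 fallen genes except at a 4-fold limit (211 and 294). They ran from 753 to 1008 and from 906 to 1065 when 1 of the 4 arrays was left out, which takes the spread of the lone array from the other groups. Arrays of one number did not deviate together between the cell states (correlation -0.093 between DKO Flk1(+) and DKO ES, 0.031 in WT), but did between the genotypes (0.311 in Flk1(+), 0.190 in ES cells), and the replicate block gave 834 and 1025 genes, and 37 above and 104 below WT. Of 229 genes followed, between 200 and 227 of all 229 passed in the settings that tested all of them. Cubn reversed without cross-hybridising probe sets, to 0.06 (adjusted p = 0.96).

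The counts of genes whose change differed from WT, 37 above and 107 below, were unstable. They were 0 and 1 with the 8 arrays alone, 153 and 163 without the parental-line arrays, 79 and 175 with chip lot as a block, an alternative chosen after seeing the data, 10 and 25 without the 40% of genes with the lowest mean, and 10 and 35 at 4-fold. Leaving out 1 array gave 15 to 127 above and 44 to 340 below, the lowest without WT ES replicate 2, the highest without WT Flk1(+) replicate 1 above and replicate 2 below. It gave 20 and 68 without DKO ES replicate 2, 74 above without WT Flk1(+) replicate 2, and 65 and 59 above without DKO Flk1(+) replicate 1 and replicate 2. The causes were not tested. Pramel6 reversed without cross-hybridising probe sets, to 0.05 (adjusted p = 0.974).

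The 2 arrays a group, a single clone per genotype, and scan days that follow cell state limit every comparison, and RMA values carry no detection call.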
